A study of Nicotiana tabacum and Solanum tuberosum subsp. andigenum and Nicotiana sylvestris with 28 samples.

Results

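The flavonoid pathway genes F3H and FLS were followed on potato cDNA arrays in plants moved between long days (LD) and short days (SD). Every spot whose symbol in the probe annotation is exactly F3H or FLS was taken, which gave 10 spots of 32448. Each cDNA clone is printed on 2 spots, so the genes are represented by 5 clones of 10684 with a value: 1 clone of F3H (gene ID 102577463, spots 155665 and 156509) and 4 clones of FLS. All 4 FLS clones carry gene ID 102577717. They are called here FLS-a (spots 137682 and 138526), FLS-b (spots 142452 and 144311), FLS-c (spots 142699 and 143543) and FLS-d (spots 151273 and 152117).

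F3H and FLS encode enzymes of the same family, the 2-oxoglutarate-dependent dioxygenases, that act one after the other in the flavonoid pathway. F3H, flavanone 3-hydroxylase, turns flavanones into dihydroflavonols, from which both flavonols and the red and blue anthocyanins are made. FLS, flavonol synthase, takes dihydroflavonols to flavonols, which in leaves are known as screens against ultraviolet light, and so draws on the same substrate as the anthocyanin branch.

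Each array compared 2 RNA samples labelled with different dyes, and 28 arrays held 27 biological replicates, 3 in each of 9 groups, and 1 repeat with the dyes exchanged. Wild-type potato (Solanum tuberosum subsp. andigena, which forms tubers only in SD), tobacco Hicks (N. tabacum, which flowers at the same time in either day length) and its isogenic line MM, which carries the Maryland Mammoth allele and flowers only in SD, were grown in LD and moved to SD for 1 day (after 55 days) or 15 days (after 41 days). N. sylvestris, which flowers only in LD, was grown in SD and moved to LD for the same times. In the remaining potato arrays the wild type (WT) was set against antisense PHYB plants (α-PHYB, with reduced levels of the photoreceptor phyB, 1 line by the methods), both kept in LD. The chambers were lit for 16 h a day in LD (80 μmol of photons per square metre each second) and for 8 h in SD (160 μmol), all at 22 °C. Plants were harvested at 56 days, 14 h after the start of the light period. By the day lengths, and in the methods, LD plants then had 2 h of light left and SD plants had been dark for 6 h. The labels instead describe LD plants taken at the end of their day and SD plants 8 h into the night. In either account day length, irradiance and light at harvest cannot be told apart in these ratios. The tissue was leaves by the labels and leaves with petioles in potato by the methods, and it could not be checked against marker genes because ratios hold no level of a gene.

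Values are log2 ratios, so that 1 is a 2-fold difference, and are given as LD/SD or WT/α-PHYB. Positive values are higher in LD or in the wild type. The deposit does not state which way its ratios run. The direction used here rests on genes other than F3H and FLS and on the study's own listings, and for N. sylvestris on the dyes in the channel descriptions, against the sample titles. Of 52 clones that the study lists for the Nicotiana biotypes, 31 matched its means within 0.02 with N. sylvestris in this direction and 2 in the opposite one. Means and standard errors of the other listings were matched within 0.002, and most clones matched in neither direction. In potato 21 of 449 matched in the direction used and 8 in the opposite one. For α-PHYB these were 16 and 1 of 74, and for MM 16 and 1 of 141. Potato photoperiod arrays gave a value for 9300 to 9887 clones and α-PHYB arrays for 8922 to 9118. MM arrays gave 5169 to 7333, Hicks 5250 to 7157 and N. sylvestris 3602 to 4873. On these arrays Nicotiana RNA was hybridized to potato clones, and why fewer clones had a value there was not tested. Array medians of the ratios lay between -0.07 and 0.01. The 5 clones differed in how often they were measured: of 28 arrays, FLS-a had a value on 27, FLS-c on 26, F3H on 19, and FLS-b and FLS-d on 11 each. FLS-b rested on a single spot on 9 of its 11 arrays, F3H and FLS-a on 3 each and FLS-c on 2.

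In potato, LD plants had more F3H transcript than SD plants (2.70-fold), and the same held for FLS-a (1.37-fold) and FLS-c (1.41-fold), and the other 2 FLS clones did not pass the test. F3H had ratios of 1.06, 0.85 and 2.07 after 1 day of SD (replicates 1, 2 and 3). After 15 days its ratios were 0.96, 1.28 and 2.38, the first being the mean of the array pair with exchanged dyes (0.92 and 1.00). All 6 values were positive, replicate 3 was the highest on both days (2.07 and 2.38), and the other 4 lay between 0.85 and 1.28. The mean over both days was 1.43 (SE 0.20, 95% interval 0.99 to 1.87, n = 6, adjusted p = 0.000286, limma with Benjamini-Hochberg adjustment over 8426 clones).

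A clone passed the test at p of 0.05 or less and adjusted p of 0.1 or less. With both days together 3 of the 5 clones passed towards LD and none towards SD, where 27.7% of all clones tested passed towards LD. Positive on all 6 potato arrays were the same 3 clones, F3H, FLS-a and FLS-c, against 22.2% of all clones. Only F3H was also at least 2-fold different, as were 3.12% of all clones towards LD. In the order of mean ratios from the highest, F3H stood at place 119 of 8426, FLS-c at 982, FLS-a at 1148, FLS-b at 3727 and FLS-d at 6871. The median ratio of all clones was 0.00, as the plot of all potato ratios shows.

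**Figure D1:**
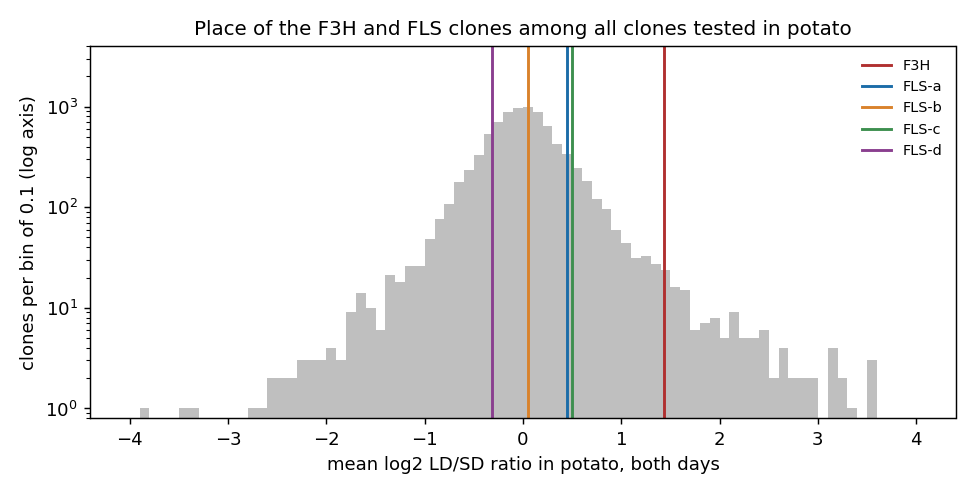
Number of clones (log axis) by mean log2 LD/SD ratio in potato over both days, for the 8426 clones measured in all replicates, with vertical lines at the F3H clone and the 4 FLS clones. F3H lies at 1.43 in the upper tail, FLS-a at 0.45 and FLS-c at 0.49 on the upper shoulder, FLS-b at 0.05 near the centre and FLS-d at -0.32 below it.

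The F3H ratio was already present after 1 day of SD. Its mean was 1.33 after 1 day (SE 0.29, 95% interval 0.67 to 1.98, n = 3, adjusted p = 0.00959, limma) and 1.54 after 15 days (SE 0.29, 95% interval 0.88 to 2.19, n = 3, adjusted p = 0.00477, limma). The values of the 2 days overlapped. The difference, 15 days minus 1 day, was 0.21 in a fit that did not pair the days (SE 0.41, adjusted p = 0.9996, limma). Its 95% interval from -0.72 to 1.14 holds both no difference and a 2-fold one. Comparing the days within each replicate number left the difference at 0.21 and lowered its SE to 0.15. It did not pass there either (adjusted p = 0.856, limma). The wide interval therefore belongs to the unpaired fit. On each day 3 of the 5 clones passed towards LD, F3H, FLS-a and FLS-c, where 19.1% of all clones did after 1 day and 20.6% after 15 days. With the methods' t-test on the 3 replicates of a day and Benjamini-Hochberg adjustment, none of the 3 passed on either day (adjusted p = 0.224 for F3H after 1 day and 0.219 after 15 days).

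Replicate 3 moved the size of the F3H ratio but not its direction. Without replicate 3 the mean over both days was 1.04 (SE 0.10, adjusted p = 0.000125, limma), and without replicates 1 and 2 it was 1.64 and 1.62. F3H differed little between the arrays with exchanged dyes, with 0.92 on the array of replicate 1 after 15 days and 1.00 on its repeat.

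FLS-a, a clone of flavonol synthase, was also higher in LD on every potato array. Its ratios were 0.60, 0.65 and 0.52 after 1 day and 0.16, 0.32 and 0.47 after 15 days, so that every value of 1 day lay above every value of 15 days. The mean over both days was 0.45 (SE 0.08, 95% interval 0.27 to 0.63, n = 6, adjusted p = 0.00139, limma). By day it was 0.59 (adjusted p = 0.00406) and 0.32 (adjusted p = 0.0488). Although the days did not overlap, their difference of -0.27 did not pass limma's test (95% interval -0.61 to 0.07, adjusted p = 0.9996), which 17 of the 8426 clones passed in all. The 15-day ratio of FLS-a lost its call without replicate 2 (0.31, adjusted p = 0.229) and without replicate 3 (0.24, adjusted p = 0.236).

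FLS-c had ratios of the same size as FLS-a in potato, 0.45, 0.67 and 0.51 after 1 day and 0.34, 0.66 and 0.34 after 15 days. All 6 were positive and the days overlapped. The mean was 0.49 (SE 0.08, 95% interval 0.33 to 0.66, n = 6, adjusted p = 0.000537, limma), with 0.54 after 1 day (adjusted p = 0.00751) and 0.44 after 15 days (adjusted p = 0.0166). The only pair of arrays with exchanged dyes differed for this clone. Replicate 1 after 15 days gave 0.66 with LD in Cy3 and 0.01 with the dyes exchanged. The dye term of FLS-c from this pair was 0.32, where its SD over the clones measured on both arrays was 0.18. On 1 pair, a dye effect cannot be told from other differences between arrays. Subtracting that dye term, which rests on this 1 pair of arrays, left a potato mean of 0.22 (adjusted p = 0.0299, limma), with the separate days no longer passing (adjusted p = 0.177 after 1 day and 0.157 after 15 days). The same subtraction moved F3H from 1.43 to 1.47 and FLS-a from 0.45 to 0.50. The 15-day ratio of FLS-c also lost its call without replicate 2 (0.34, adjusted p = 0.167).

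FLS-b and FLS-d, assigned to the same FLS gene, did not follow the other 2 clones. FLS-b had -0.22, -0.14 and 0.44 after 1 day and 0.15, -0.15 and 0.21 after 15 days, on both sides of 0 on each day. Its mean was 0.05 with a 95% interval from -0.17 to 0.27 (adjusted p = 0.685, limma), an interval that lies below the F3H mean. FLS-d had 0.16, -0.35 and -0.49 after 1 day and 0.53, -0.52 and -1.23 after 15 days. Replicate 1 was positive on both days, and replicates 2 and 3 were negative on both days. The mean of FLS-d was -0.32 (SE 0.19, 95% interval -0.74 to 0.10, n = 6, adjusted p = 0.190, limma), and without replicate 1 it was -0.65 and passed the test (adjusted p = 0.0106). Replicate 3, the highest for F3H on both days, was the lowest for FLS-d on both days. Whether FLS-b and FLS-d bind transcripts of another member of the family was not tested.

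**Figure D2:**
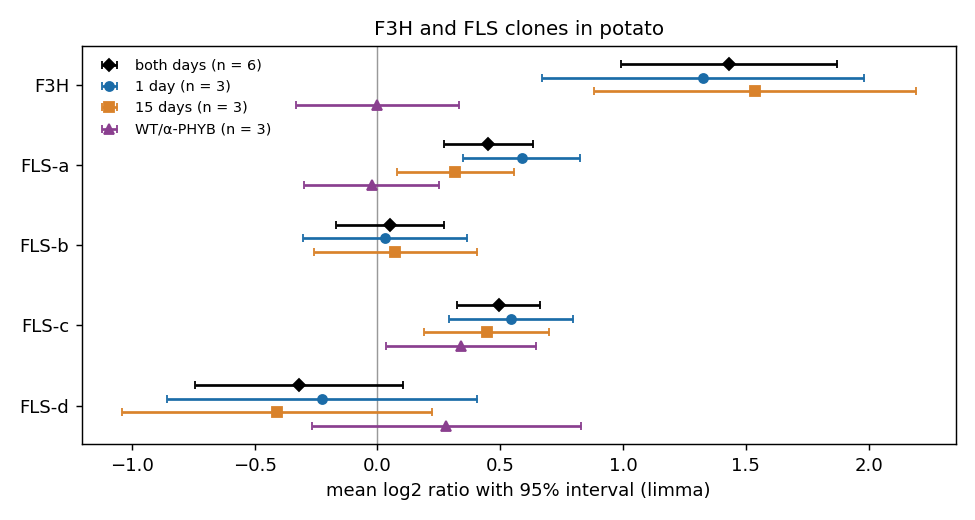
Mean log2 ratio (horizontal axis) with its 95% interval from limma for the F3H clone and each FLS clone in potato, for LD/SD over both days, after 1 day and after 15 days of SD, and for WT/α-PHYB. The 3 LD/SD intervals of F3H, FLS-a and FLS-c lie above 0, those of FLS-b and FLS-d hold 0, and the WT/α-PHYB intervals of F3H and FLS-a lie around 0. FLS-b has no WT/α-PHYB interval, since it has a value on 1 of those 3 arrays.

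Within an array the ratio of F3H was above that of each FLS clone on 6 of 6 potato arrays. The difference in log2 ratio averaged 0.98 against FLS-a (0.21 to 1.91 over the arrays), 0.94 against FLS-c (0.19 to 2.04), 1.38 against FLS-b (0.81 to 2.16) and 1.75 against FLS-d (0.43 to 3.61). Each of these 4 comparisons had a two-sided p of 0.03125 in an exact test that flips signs over the 6 arrays, the smallest p that 6 arrays allow (adjusted p = 0.03125 over the 4). The 2 days were correlated in their deviations by replicate number, however, and flipping signs over the 3 replicate numbers gave an exact p of 0.25 for each, which is the smallest that 3 allow. The smallest differences from FLS-a and FLS-c were on replicate 2 after 1 day, where F3H had its lowest value in potato.

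Unlike the photoperiod ratios, those of the wild type against α-PHYB showed no F3H difference of that size. The 3 arrays gave F3H ratios of 0.26, -0.07 and -0.19, on both sides of 0 and all below the lowest LD/SD ratio of 0.85. The mean was -0.001 with a 95% interval from -0.33 to 0.33 (adjusted p = 0.996, limma over 8463 clones). A 2-fold difference in either direction lies outside that interval. FLS-a had 0.01, -0.13 and 0.05, with a mean of -0.02 (95% interval -0.30 to 0.25).

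FLS-c was positive on all 3 α-PHYB arrays, with a mean of 0.34 (range 0.23 to 0.55), but did not pass the test (95% interval 0.03 to 0.65, adjusted p = 0.152, limma). With the dye term subtracted its mean was 0.02. FLS-d had 0.49, 0.68 and -0.33, a mean of 0.28 (adjusted p = 0.437), with replicate 3 again the lowest. Of the 4 clones tested 0 passed with limma, 1 had an unadjusted p under 0.05, and 8.19% of all clones passed towards the wild type. Without replicate 3, on 2 arrays, FLS-c (0.39, adjusted p = 0.0770) and FLS-d (0.59, adjusted p = 0.020) passed.

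The LD/SD and WT/α-PHYB ratios in potato did not overlap for F3H and FLS-a, and overlapped for FLS-c and FLS-d. The means differed by 1.43 for F3H and 0.48 for FLS-a, each with a two-sided p of 0.0238 in an exact permutation test over 9 arrays, the smallest p it allows, and an adjusted p of 0.0476 over the 4 clones compared. For FLS-c the difference was 0.15 and for FLS-d -0.60, each with an exact p of 0.167. These tests treat the 1-day and 15-day arrays of the same replicate number as independent, although they shared deviations, so their p-values can be too small. The sample titles also name the LD wild type alike, by replicate number, on the photoperiod and the α-PHYB arrays. Whether these arrays shared LD samples is not stated, and the tests take them as independent.

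In Nicotiana, F3H was measured on 9 of 18 arrays and was higher in LD on each of them in the direction used here. With N. sylvestris turned to its titles, it was higher in LD on 8 of 9. MM gave 1.18 and 2.32 after 1 day (replicates 2 and 3) and 1.76 and 1.18 after 15 days (replicates 1 and 3), with no value on the other 2 arrays. The MM values of 2.32 and 1.76, the highest there, rested on a single spot each. Hicks gave 0.72 (a single spot), 1.33 and 1.75 after 1 day and 1.81 after 15 days, from replicate 3 alone. N. sylvestris had 1 value, 1.69, on replicate 1 after 15 days in LD, and its 2 spots gave 2.32 and 1.06. With potato, F3H was positive on 15 of 15 photoperiod arrays with a value, from 0.72 to 2.38 (14 of 15, with -1.69 for N. sylvestris, by the titles), while 2.63% of the 3456 clones with values on the same arrays were positive on all of them.

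The F3H ratios of MM and Hicks overlapped those of potato. The mean of F3H was 1.61 in MM (SD 0.54, n = 4), a 3.05-fold difference, 1.40 in Hicks (SD 0.50, n = 4), a 2.65-fold difference, and 1.43 in potato (SD 0.64, n = 6). F3H missed arrays and was left out of the tests that ask for a value in every replicate. Asking for 2 of 3 replicates on each day, it passed in MM over both days (SE 0.23, adjusted p = 0.00790, limma, n = 4), where 11.4% of all clones passed towards LD, and also with the replicate number as a block (1.58, adjusted p = 0.0387, added after seeing the data). The separate MM days did not pass (adjusted p = 0.145 and 0.135). On the 1-day arrays of Hicks alone, with all 3 values, the mean was 1.27 (SE 0.20, 95% interval 0.82 to 1.72, adjusted p = 0.00651, limma), and 13.2% of all clones passed towards LD. The methods' t-test on the same 3 values missed the limit (adjusted p = 0.268, q-value 0.138).

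Over both Hicks days the mean of F3H passed once values on 3 of 6 arrays sufficed (adjusted p = 0.0112, limma, n = 4), a rule chosen after the data were seen, under which 3.38% of all clones passed towards LD. Fitted on the 10 arrays with a value, the difference between potato and MM was -0.18 (SE 0.33, 95% interval -0.90 to 0.55, adjusted p = 0.769, limma). This interval leaves room for nearly a 2-fold larger ratio in MM. F3H could not be compared among the 3 Nicotiana biotypes, since N. sylvestris had 1 value.

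**Figure D3:**
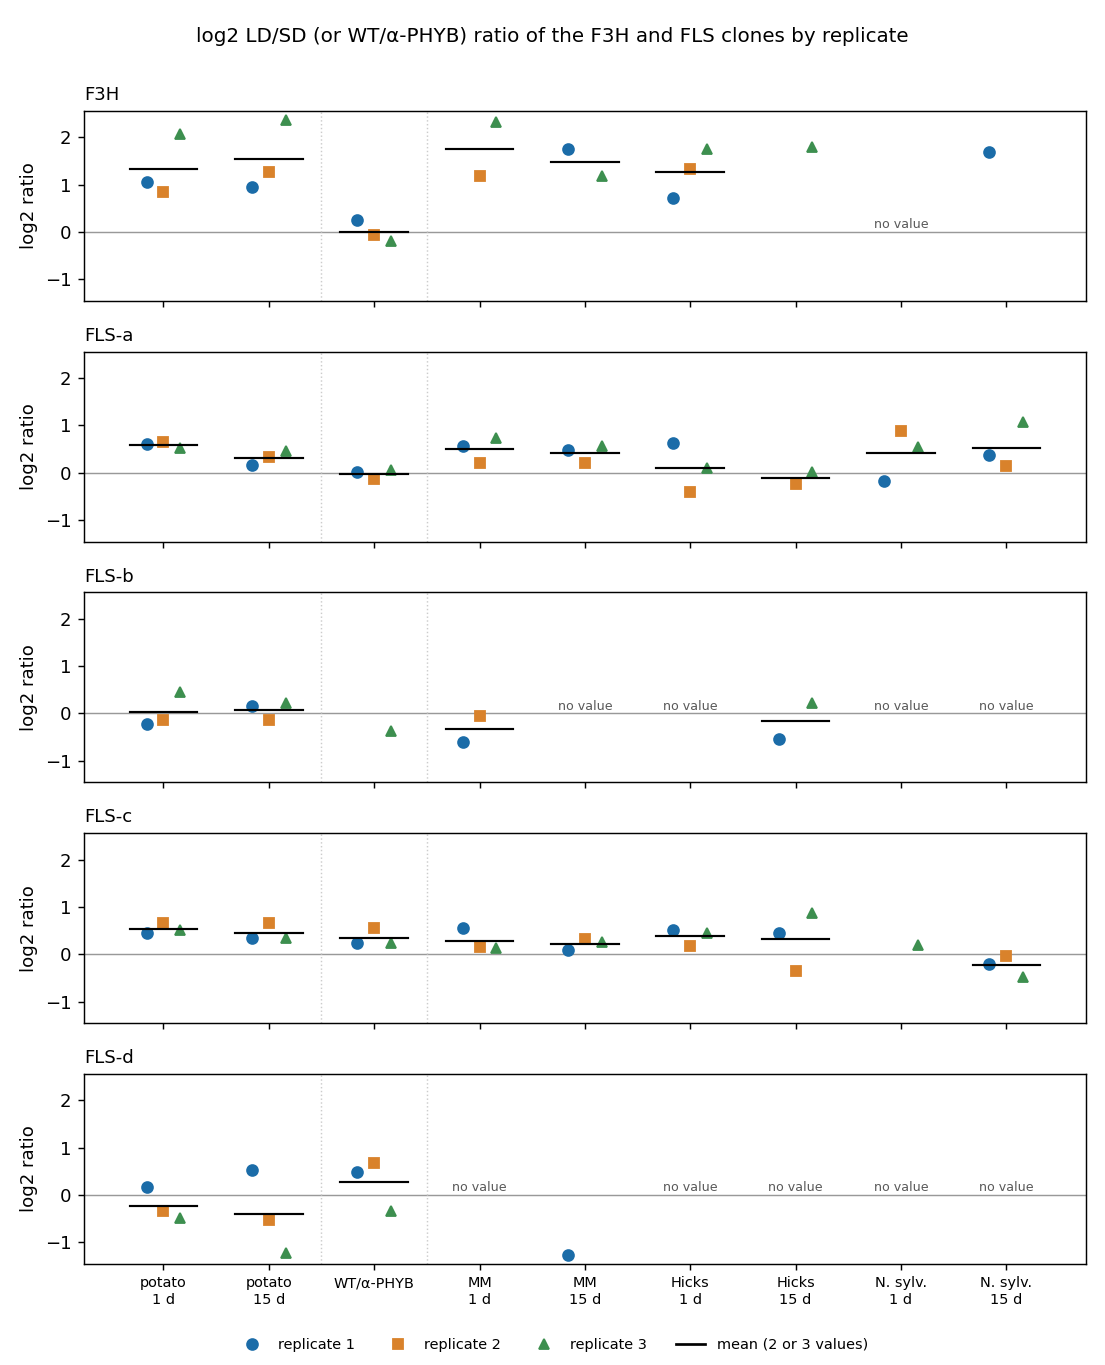
log2 ratio (vertical axis) of the F3H clone and each FLS clone by group, with 1 symbol for each biological replicate and a line at the mean where there are at least 2 values. Ratios are LD/SD except in the third column, which is WT/α-PHYB. F3H lies between 0.72 and 2.38 in every LD/SD group with a value and between -0.19 and 0.26 in WT/α-PHYB, and no FLS clone except FLS-a, at 1.08 on 1 N. sylvestris array, is above 1.

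FLS-a was measured on 17 of the 18 Nicotiana arrays and its ratios differed in spread between the biotypes. In MM they were 0.56, 0.21 and 0.73 after 1 day and 0.48, 0.21 and 0.58 after 15 days, positive on 6 of 6 arrays (as were 11.7% of all clones), with replicate 2 lowest on both days. After 15 days, replicate 1 averaged spots of -0.06 and 1.01, and replicate 2 rested on a single spot. The mean was 0.46 (SE 0.12, 95% interval 0.19 to 0.73, adjusted p = 0.0337, limma), beside 0.45 in potato. Of the 2 clones tested in MM it alone passed, where 13.5% of all clones passed towards LD. Its call was lost when same-numbered replicates were allowed to share deviations (replicate block, adjusted p = 0.177), without replicate 1 (0.43, adjusted p = 0.151) and without replicate 3 (0.36, adjusted p = 0.312).

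In Hicks, FLS-a had values on both sides of 0: 0.62, -0.41 and 0.09 after 1 day, and -0.25 and 0.01 on replicates 2 and 3 after 15 days. Its mean was 0.01 (SD 0.40, n = 5). N. sylvestris gave -0.18, 0.88 and 0.53 after 1 day and 0.37, 0.15 and 1.08 after 15 days, positive on 5 of 6 arrays. That mean was 0.47 (95% interval 0.05 to 0.89, adjusted p = 0.166, limma), or -0.47 (-0.89 to -0.05) in the direction of the titles. It did not pass, where 2.64% of all clones did towards LD. Without replicate 1 it was 0.66 and passed (adjusted p = 0.0833). With values in 2 of 3 replicates sufficing, the difference of FLS-a among the 3 biotypes did not pass limma's F-test (adjusted p = 0.276). Without replicate 1 FLS-a had every value, the biotype means spanned 0.80, and the difference passed (adjusted p = 0.0972, limma's F-test).

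FLS-c did not pass limma's test in any Nicotiana biotype where it was tested, MM and Hicks. In MM it lay between 0.08 and 0.56 and was positive on 6 of 6 arrays, with a mean of 0.25 (95% interval 0.00 to 0.51, adjusted p = 0.163, limma), and it passed with the methods' t-test (adjusted p = 0.0910). In Hicks it was positive on 5 of 6 arrays, from -0.36 to 0.87, with a mean of 0.35 (adjusted p = 0.206, limma), and 4.98% of all clones passed towards LD. Replicate 2 after 15 days was the negative one, and without replicate 2 the mean of 0.57 passed (adjusted p = 0.0732). In N. sylvestris its 4 values were 0.20 after 1 day and -0.20, -0.03 and -0.49 after 15 days.

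If the dye term of FLS-c is a dye effect, it bears on these values too. With it subtracted, the mean was -0.07 in MM and 0.03 in Hicks. On the N. sylvestris arrays SD was in Cy3, the dye that LD carried elsewhere, and the subtraction moved the mean from -0.13 to 0.20 (n = 4). No difference of FLS-c between the biotypes was tested. FLS-b had 4 values in Nicotiana, -0.61 and -0.06 in MM after 1 day and -0.53 and 0.21 in Hicks after 15 days. FLS-d had 1, -1.27 on replicate 1 of MM after 15 days, the lowest ratio of any of the 5 clones.

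Between potato and MM, neither FLS clone with values throughout differed past the test. The difference for FLS-a was -0.01 with a 95% interval from -0.30 to 0.29, which excludes a 2-fold difference in either direction. For FLS-c it was 0.24 (95% interval -0.03 to 0.51, adjusted p = 0.221, limma). Of these 2 clones 0 passed, 0 had an unadjusted p under 0.05, and 11.6% of all clones passed towards a higher ratio in potato and 10.9% towards a lower one. FLS-c passed by q-value from the methods' t-test (0.0621), and with arrays centred and scaled (difference 0.33, adjusted p = 0.0680, limma).

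Few other genes of the pathway could be placed beside F3H and FLS. Of a list of 50 symbols of enzymes from the shikimate pathway through phenylpropanoids to flavonoids and anthocyanins, 2 were found in the annotation, on 3 clones. SHKA, the enzyme that opens the shikimate pathway and so feeds the synthesis of phenylalanine, had a mean of -0.09 in potato (adjusted p = 0.613, limma, positive on 2 of 6 arrays) but of 1.61 in MM (adjusted p = 0.00264, positive on 6 of 6) and 0.99 in Hicks (adjusted p = 0.0231, positive on 6 of 6). PPO, polyphenol oxidase, which oxidizes phenolic compounds in damaged tissue, had means of 0.75 and 0.77 on its 2 clones in potato, each positive on 4 of 6 arrays and not past the test. The PPO clone measured throughout in tobacco had 1.98 in MM (adjusted p = 0.0145, limma) and 1.00 in Hicks (adjusted p = 0.0281).

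From the clones with 1 gene symbol, those named by a locus number and those of F3H and FLS were left out. The genes with the ratio pattern most like that of each clone were sought among the rest that share at least 20 replicates with it. For FLS-c, of 99 clones, these were METK1, an S-adenosylmethionine synthase (r = 0.64 over 25 replicates), RSI5 (r = 0.60 over 20) and GRX2 (r = 0.57 over 23). For FLS-a, of 97 clones, they were GAPDH (r = 0.52 over 23), PPO (r = 0.45 over 22) and SI1 (r = 0.36 over 20). F3H, FLS-b and FLS-d had too few values for the rule. Over the 18 replicates of F3H, a limit chosen after the data were seen, the nearest of 88 clones were PPA1 (r = 0.68) and the 2 PPO clones (r = 0.66 and 0.64). These points share arrays, biotypes and dyes, and the correlations are descriptions only.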

How the data were processed

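The authors hybridized RNA pairs to the TIGR potato cDNA array, normalized the intensities by LOWESS, and deposited log2 ratios without intensities; the submitters' processing notes name limma. Ratios are stored as log2 of values with 2 decimals. Missing values carry no stated reason. Replicates are separate biological samples by the methods. The 2 spots of a clone (15360 pairs, median r 0.890 per array) were averaged, and the array with exchanged dyes (r 0.784 with its partner as deposited, over 8388 clones) was averaged with its partner. Ratios were read as Cy3 over Cy5, apart from the array with exchanged dyes. Its deposited ratios ran the same way as those of its partner and were averaged without a change of sign. N. sylvestris ratios were turned to LD/SD.

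Each mean ratio was set against 0 by moderated tests (lmFit and eBayes of limma 3.58.1 in R 4.3.3) on the arrays of its comparison, over all clones with a value in every replicate, with Benjamini-Hochberg adjustment. Both days of a biotype shared 1 estimate of spread. Limits were p of 0.05, adjusted p of 0.1 and, for 2-fold calls, a log2 ratio of 1. The methods set the same numbers on a one-sample t-test and a q-value. Exact tests over arrays were added after seeing the data. The fits were tested on simulated data with independent noise and no missing arrays. This setting does not cover deviations shared by replicate number or clones that lack arrays. The number of arrays limits the precision.

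The rule for named genes took every F3H and FLS clone, a pathway list, and the 3 named clones most correlated with each over at least 20 replicates. Members and lists were chosen with earlier results of these data known. Replicate numbers pair the days: in potato, same-numbered arrays deviated together with r from 0.140 to 0.460. For MM this was 0.514 to 0.753 and for N. sylvestris 0.604 to 0.856, but for Hicks -0.069 to 0.320. Alternatives covered tests, thresholds, centring, scaling, missing values, spots, dyes, replicate blocks and replicates left out. No clone sequences were used here.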

Additional observations from a re-analysis of the deposited data

How the results depend on the processing

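Of 852 alternative values, 772 kept their direction and their side of the threshold or stayed within the spread. No value that had passed changed sign. The F3H ratio over both days in potato passed under all 19 alternatives (1.04 to 1.64, adjusted p up to 0.0120), including the replicate block (adjusted p = 0.000437, limma). With the methods' t-test, F3H on single potato days (1.33 and 1.54) no longer passed, with Benjamini-Hochberg adjustment (0.224 and 0.219) or by q-value (0.103 and, with p above its limit, 0.0992).

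Counts of clones that passed moved by at least 1.5 times as follows. In potato after 1 day, 3 became 0 with the t-test and Benjamini-Hochberg adjustment, and after 15 days 3 became 0 with that adjustment and with the q-value. They became 2 by q-value after 1 day and, on either day, with the dye term subtracted. Over both MM days, 1 became 2 with either form of the t-test, with values in 2 of 3 replicates, and with values on 3 of 6 arrays. It became 0 with the replicate block. With both spots required and with the first spot alone it was also 0, but FLS-a then lacked a value on 1 array and was not tested. In Hicks, 0 became 1 with values on 3 of 6 arrays, with or without the block, rules added after seeing the data. Between potato and MM, 0 became 1 with the q-value and with arrays centred and scaled. Leaving out 1 replicate gave 1 to 4 after 15 days in potato, 0 to 2 for α-PHYB, 0 to 1 in MM, 0 to 1 in Hicks and 0 to 1 in N. sylvestris. Among the clones and comparisons fitted with it, the replicate block changed no other call, and 2 F3H means fitted with missing arrays passed with it too, in MM (adjusted p = 0.0387) and Hicks (adjusted p = 0.00519).

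Values that had not passed, among those tested with a value in every replicate, changed sign in 26 cases. With the dye term subtracted these were FLS-c in MM (-0.070, by day -0.039 and -0.10), in Hicks after 15 days (-0.00083) and between the potato days (0.0087, as without the swapped array), and the α-PHYB ratios of F3H (0.040) and FLS-a (0.035). A single spot gave 0.022 for F3H in α-PHYB, 0.042 for FLS-a between the MM days and 0.17 for FLS-c between the Hicks days. Centring and scaling gave 0.085 for FLS-a between potato and MM. With 1 replicate left out, F3H in α-PHYB ranged from -0.13 to 0.094 and FLS-a there from -0.06 to 0.033. FLS-a ranged from -0.15 to 0.068 between potato and MM, and from -0.093 to 0.55 between the N. sylvestris days. FLS-b ranged from -0.087 to 0.15 in potato, -0.18 to 0.15 after 1 day and -0.12 to 0.18 between the days. The difference of the days for FLS-c ranged from -0.18 to 0.14 in MM and from -0.29 to 0.18 in Hicks. FLS-d ranged from -0.88 to 0.00075 after 15 days in potato and from -0.46 to 0.095 between the days there. Beside these cases, FLS-a in Hicks, which lacked an array, changed sign too. Over both days its mean went from 0.012 to -0.14 without replicate 1 and to -0.013 with the replicate block. After 1 day it went from 0.10 to -0.16 without replicate 1.

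With 3 arrays a group and 9 of 18 Nicotiana arrays lacking F3H, a ratio of the size of FLS-a can miss the test. The N. sylvestris direction of the sample titles gave no value in the test among biotypes, where none of the 5 clones was measured throughout. The tests of FLS-a among biotypes, with missing arrays allowed or without replicate 1, were run only in the direction used here. Their outcome in the direction of the titles was not tested.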
